A study of Mus musculus with 12 samples.

Results

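Box H/ACA small nucleolar RNAs (snoRNAs) and small Cajal body RNAs (scaRNAs) were followed in mouse liver. The members are all genes with a probe set whose only annotated symbol starts with Snora or Scarna and a digit, each represented by its brightest probe set. The rule gave 24 genes, 18 Snora and 6 Scarna, of 30142 genes with 1 annotated symbol. A further 23 probe sets carried a Snora or Scarna symbol together with other symbols and were not members.

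The study asks how obesity of a female ancestor relates to liver gene expression in later generations of males. Liver RNA was profiled on 12 whole-transcript arrays from Affymetrix, 4 in each of 3 groups, and every sample came from a male C57BL/6 mouse of 12 weeks. The F2 group held descendants of obese Avy/a females, the F3 group held descendants 1 generation further on, and the control group held males with lean control parents. Avy is the viable yellow allele of agouti, which leads to obesity. The series' design calls F2 males grandsons and F3 males great-grandsons of the obese females, while the sample labels call both sons of an obese mother, and the generation of the control males is not given. No label says that replicates of a group came from separate animals, and the p-values below therefore reflect the spread between samples, which may be technical.

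H/ACA snoRNAs guide the conversion of uridine to pseudouridine, mostly in ribosomal RNA. Each folds into hairpins joined by a hinge that holds the H box (ANANNA), with an ACA near the 3′ end, and works in a particle with the proteins Dkc1 (dyskerin, the pseudouridine synthase), Gar1, Nhp2 and Nop10. Most are cut out of introns of host genes, often genes for ribosomal or translation proteins, while scaRNAs guide modification of spliceosomal RNAs in Cajal bodies. In human, SCARNA2, SCARNA9 and SCARNA17 are of the box C/D type, and SCARNA6 and SCARNA10 combine both kinds of box, so the name H/ACA does not hold for every Scarna member and the Scarna genes are described apart below.

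The array table and the reference tables used here gave no sequence for Snora69, Snora21 or the other leading members. A RefSeq microRNA hairpin overlapped the gene of 1 member, Snora19. Hairpins also overlapped genes that are no members: Scarna3a, Scarna3b, Scarna13, Snora36b and Snora34, which shares its probe set with Mir1291. The hairpins for Snora19 and Snora34 are shown because both pairs have array values described below, with each match to ANANNA in capitals. Mir3084-2 lies at chr19:60774329-60774397 on the minus strand of GRCm38.p6 and covers all 56 bases of the annotated Snora19 gene.
Mir3084-2: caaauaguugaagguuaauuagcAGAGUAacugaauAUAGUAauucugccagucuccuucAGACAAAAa
Mir1291 lies at chr15:98519762-98519878 on the minus strand of GRCm38.p6 and covers 73 of the 118 bases of Snora34.
Mir1291: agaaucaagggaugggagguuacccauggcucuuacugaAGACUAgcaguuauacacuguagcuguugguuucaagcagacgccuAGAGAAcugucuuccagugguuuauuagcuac
Mir3084-2 held 4 matches, the last 2 of which overlap, and Mir1291 held 2. The search ran along the RNA strand only. ANANNA is a common word: 50.6% of 235 RefSeq mouse hairpins of 64 to 74 bases and 69.6% of 125 of 107 to 127 bases contain it. A match is a description and not a mapped H box.

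Arrays differed in the signal of the members within every group, and the labels name nothing technical that divides them. Of the 24 members, 21, 3, 7 and 20 lay above their own mean over the 12 arrays on F2 replicates 1 to 4, 18, 18, 19 and 11 on F3 replicates 1 to 4, and 3, 19, 4 and 14 on control replicates 1 to 4. Array medians over all probe sets lay between 4.49 and 4.60 log2 units. Hepatocyte markers (5 measured of 6) had means of 12.4 to 13.3, and their summed level spanned 14.94 to 15.11 in F2, 15.04 to 15.09 in F3 and 14.97 to 15.09 in control. The 5 Kupffer cell markers had a log2 summed level of 10.25 to 11.03 in F2, 10.06 to 10.73 in F3 and 10.25 to 10.60 in control. None of the markers of Kupffer cells, sinusoidal endothelium, cholangiocytes, lymphocytes, red cells, adipocytes or exocrine pancreas had the order of arrays described below for Snora69, and 1 of 5 stellate cell markers had it turned round. In bulk liver RNA, fewer cells of a type and less RNA per cell cannot be told apart.

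All values below are log2 values of a probe set. Probe sets bind with different strength, so they were compared between arrays and with control probe sets, and their order is not an order of abundance. Over the 12 arrays, 17 members had a mean above 4.55, the median of all probe sets, which was the filter for testing. Scarna17 had the highest mean signal at 10.29, followed by Snora16a at 8.63, Scarna2 at 8.24, Snora21 at 8.10, Snora68 at 8.03 and Snora73b at 7.93. The 5222 negative control probe sets had a median of 4.24 and a 95th percentile of 7.05. The 7 members below the filter were Snora35 (4.50), Snora41 (4.49), Snora19 (4.36), Snora2b (4.23), Snora75 (4.22), Scarna8 (3.62) and Scarna9 (3.16). Their means lay within the range of the negative controls. Snora31 (6.81), Snora7a (6.74), Snora78 (6.55), Snora69 (6.29), Scarna10 (6.02) and Snora20 (5.76) passed the filter but also lay below the 95th percentile of the negative controls. Snora35 is encoded in an intron of the serotonin receptor gene Htr2c and is known as a brain RNA. The probe set annotated to both Mir3084 and Snora19 (hairpin Mir3084-2 is printed above) had the same value as the Snora19 probe set on every array.

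Snora69, a snoRNA encoded within the ribosomal protein gene Rpl39, was either bright or at background. It had 8.09, 4.13, 3.98 and 8.09 on the F2 arrays, 7.92, 7.93, 7.65 and 3.93 on the F3 arrays, and 3.82, 7.96, 4.17 and 7.76 on the control arrays. It was thus bright on 7 arrays (F2 replicates 1 and 4, F3 replicates 1, 2 and 3, control replicates 2 and 4) and low on the other 5, and all groups overlapped. The highest of the 5 low values, 4.17, exceeded 48.6% of the negative control probe sets, so Snora69 was at their level on those arrays. The distance between the lowest bright value and the highest low value was 3.48, a step of at least 11.1-fold since the low values lay at background. No other of the 72688 probe sets had a larger step between measured values with these arrays on these sides. Its SD over the 12 arrays, 2.02, to which the values at background contribute, was the second highest of the 30142 genes. The order was read from Snora69 itself, so these values describe it and carry no test.

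Snora21, a snoRNA encoded within the ribosomal protein gene Rpl23, had the next largest spread (SD 0.810). It had 8.96, 6.86, 7.45 and 8.80 on the F2 arrays, 8.69, 8.69, 8.55 and 7.37 on the F3 arrays, and 7.23, 8.87, 7.12 and 8.61 on the control arrays. The same 7 arrays as for Snora69 were the highest, with a step of 1.10 (2.14-fold) to the other 5. Snora16a, encoded within the snoRNA host gene Snhg12, had 9.34, 7.88, 8.26 and 9.16 on the F2 arrays, 8.96, 8.90, 8.83 and 7.997 on the F3 arrays, and 8.26, 9.06, 7.87 and 9.03 on the control arrays. Again the same 7 arrays were highest, with a step of 0.57. Snora41, from the elongation factor gene Eef1b2, had the same order with a step of 0.56, although its mean lay below the filter.

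**Figure D1:**
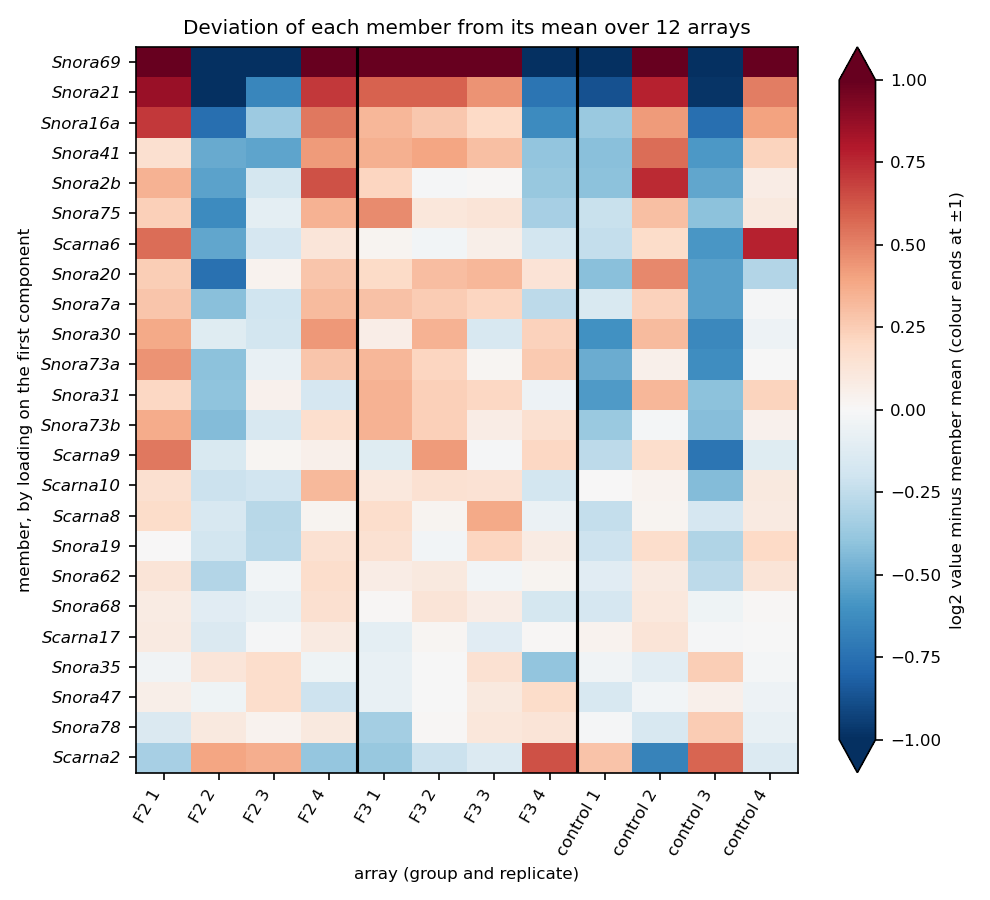
Deviation of each of the 24 members (rows) from its own mean on each of the 12 arrays (columns, F2, F3 and control, separated by black lines), in log2 units, red above and blue below the mean; colours stop at ±1, which Snora69 exceeds on every array. F2 replicates 1 and 4, F3 replicates 1 to 3 and control replicates 2 and 4 are mostly red, and Scarna2 in the bottom row has the opposite colours.

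Of the 23 members other than Snora69, 10 (43.5%) had all of these 7 arrays above all of the other 5. Among all 30142 genes 4.26% had this order, and among the 18725 genes above the filter 3.37%. The 10 were Snora21, Snora16a, Snora41, Snora75, Snora2b, Scarna6, Snora7a, Scarna8, Snora68 and Scarna10, with steps between 0.037 for Scarna10 and 1.10 for Snora21. They included members above and below the filter: with Snora69 counted, 7 of 17 and 4 of 7. Another 12 members overlapped between these arrays, and Scarna2 had the order turned round, as did 1.56% of all genes. The steps are a description, since small RNAs share their source on each array and the order of arrays came from a member.

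A principal component analysis of the 24 member-centred profiles put 89.9% of the variance on the first component. Snora69 alone held 59.2% of the members' summed variance, and without it the first component held 80.2%. With every member scaled to the same variance it held 66.1%. Loadings were positive for 20 members and negative for Scarna2, Snora35, Snora47 and Snora78.

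Among the members above the filter, the smallest spreads belonged to Scarna17 (SD 0.0844), Snora68 (0.116), Snora47 (0.120) and Snora62 (0.152), against 2.02 for Snora69, 0.810 for Snora21, 0.536 for Snora16a and 0.432 for Scarna2. The median SD of the members was 0.323, against 0.124 for all genes above the filter. Other small RNA classes described below had similar or larger medians: 0.342 for C/D box snoRNAs, 0.330 for U RNAs and 0.563 for Y RNAs. For 7SK and 7SL RNA it was 0.036. The members therefore did not share 1 size of movement: Snora69 spanned 4.27 log2 units, whereas Snora68 kept the same order of arrays within a step of 0.059.

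The 6 Scarna members moved in different ways. Scarna17 had 10.38, 10.15, 10.28 and 10.38 on the F2 arrays, 10.19, 10.31, 10.18 and 10.31 on the F3 arrays, and 10.33, 10.42, 10.28 and 10.29 on the control arrays, with no shared order. Scarna2, which has no host gene in RefSeq, had 7.91, 8.64, 8.61 and 7.86 on the F2 arrays, 7.86, 8.02, 8.11 and 8.88 on the F3 arrays, and 8.53, 7.57, 8.82 and 8.10 on the control arrays. It was high where Snora69 was low, with a step of 0.42 (1.34-fold) between the lowest of those 5 arrays and the highest of the other 7, and only 4 of 30142 genes had a larger step in that direction. Scarna6, from Atg16l1, Scarna8, from Haus6, and Scarna10, from Ncapd2, had the order of Snora69 with steps of 0.14, 0.085 and 0.037. Scarna6 was highest on F2 replicate 1 (8.33) and control replicate 4 (8.54), while the F3 arrays lay between 7.59 and 7.83. Scarna9, from Cep295, lay at background level between 2.43 and 3.69 and overlapped.

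**Figure D2:**
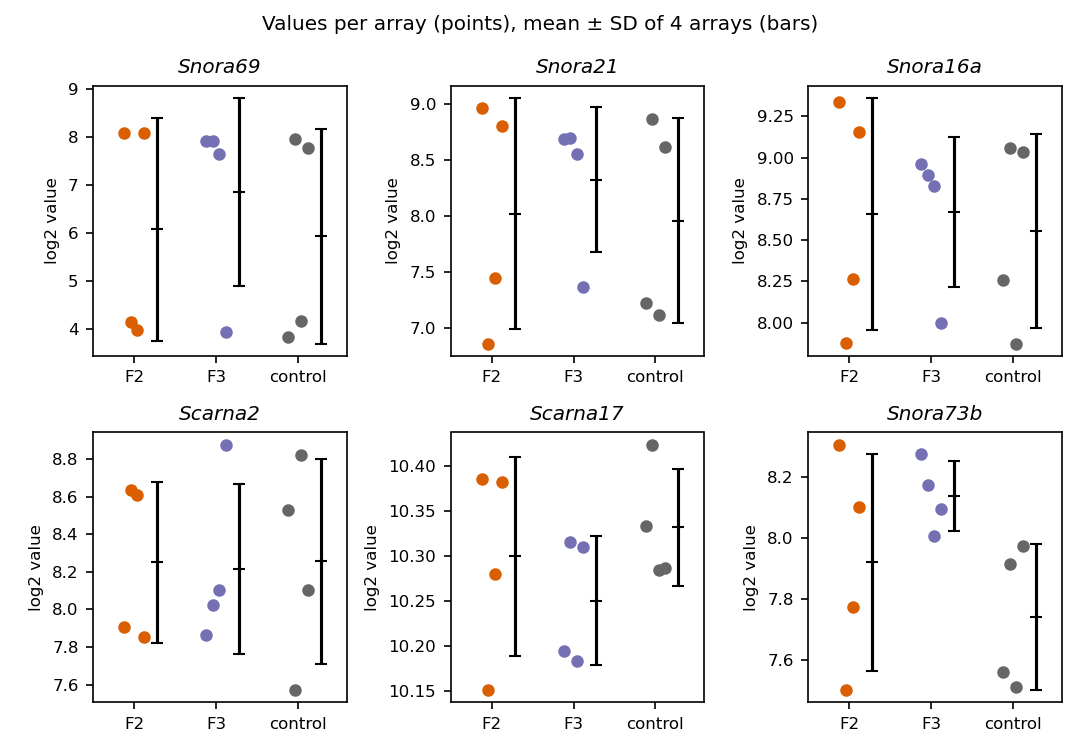
Log2 values of 6 members on single arrays (points) in the F2, F3 and control groups, with the mean ± SD of each group of 4 beside them; each panel has its own axis, which does not start at 0. Snora69, Snora21 and Snora16a fall into a high and a low set of arrays within every group, Scarna2 does so the other way up, Scarna17 stays within 10.15 to 10.42, and the F3 values of Snora73b (8.01 to 8.28) lie above the control values (7.51 to 7.98).

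Among the probe sets with several symbols, the one for Mir1291 and Snora34, whose hairpin is printed above, lay at 9.33 to 10.05 on the 7 arrays where Snora69 was bright and at 5.15 to 6.57 on the other 5. That step was 2.76. The probe set for Eif5 and Snora28 had the same order with a step of 0.014, and the other 21 of 23 overlapped. These probe sets carry symbols of other genes too, and their signal cannot be assigned to the snoRNA.

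The order was shared with other small RNA classes but was not confined to them. Among genes with 1 annotated symbol, the largest steps after Snora69 belonged to genes annotated as protein-coding. These were Gm20926 (2.31), Gm20935 (2.26), Gm21118 (2.22) and Gm20810 (2.20). They were followed by genes annotated as snoRNA, Gm25710 and Gm26434 among them, with the same step of 1.99. A step of at least 2 was found for 90 of 72688 probe sets but for only 5 genes with 1 annotated symbol. Of 44 box C/D snoRNA genes, which guide ribose methylation, 17 had all 7 arrays above the other 5. So did 7 of 14 U RNA symbols (Rnu and a digit). Rnu1b1 and Rnu1b2 had the same values on every array, as did Rnu3b1, Rnu3b2 and Rnu3b3. The counts of U RNA symbols therefore include copies. The U RNAs comprise 9 symbols for RNAs of the spliceosome, 6 of them with the order, and 5 for U3, a box C/D RNA of ribosomal RNA processing, 1 of them with the order. Both Y RNAs, which bind the Ro protein, did so too. Rny1 had 7.69, 6.19, 6.09 and 7.502 on the F2 arrays, 7.35, 7.43, 7.32 and 6.53 on the F3 arrays, and 6.45, 7.71, 5.92 and 7.19 on the control arrays. Other noncoding RNAs differed from this and overlapped: the RNA components of RNase MRP (Rmrp) and RNase P (Rpph1), and 3 symbols for 7SK and 7SL RNA. Of these symbols, Rn7s1 and Rn7s2 had the same values on every array and are copies in this count. The telomerase RNA Terc, itself an H/ACA RNA, overlapped too. Rmrp stayed between 10.82 and 11.04 and Rn7sk between 12.97 and 13.13 over the 12 arrays. Terc stayed between 5.78 and 6.32 and was highest on F3 replicate 2.

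**Figure D3:**
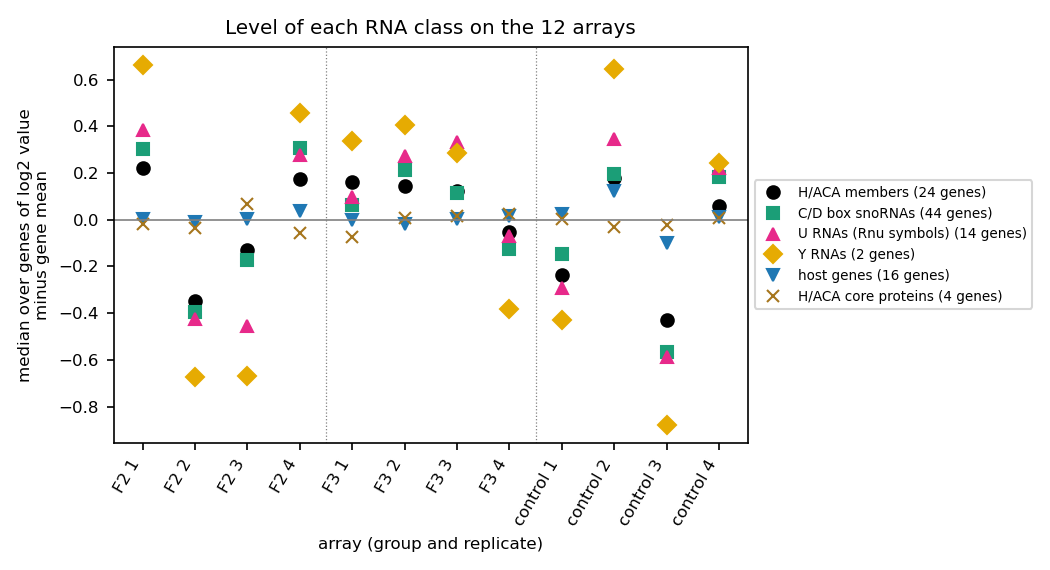
Median deviation from the gene mean, in log2 units, of each RNA class on the 12 arrays (F2, F3 and control, each point the median over the genes of 1 class). H/ACA members, C/D box snoRNAs, U RNAs and Y RNAs go up and down together over the arrays, from −0.43 to 0.22 for the members, while host genes (−0.10 to 0.12) and the core proteins of the H/ACA particle (−0.073 to 0.066) stay near 0.

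When each member was fitted on the per-array level of the C/D box snoRNAs, the median SD left over was 0.175, against 0.323 without the fit. Snora69 kept 0.992 and Snora21 kept 0.303. The fitted slope, the change of a member for a change of 1 in the C/D level, had a median of 0.853 and ran from −1.31 for Scarna2 to 6.27 for Snora69. The members thus followed the C/D level to different degrees.

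Host genes varied less over the arrays than the small RNAs within them. RefSeq places 23 of the 24 members within a longer gene, and 16 had a host measured by a probe set of its own. In 16 of 16 pairs the snoRNA or scaRNA had the larger SD over the 12 arrays. The smallest ratio of the SDs was 1.16, for Snora47 and Zbed3. The 7 members below the filter are among these pairs, and the host Htr2c (mean 3.35) lay below it too. Rpl39, the host of Snora69, stayed between 7.48 and 7.80 (SD 0.0895), also on the 5 arrays where Snora69 was at background. Tpt1, which encodes a translationally controlled protein and hosts Snora31, stayed between 6.61 and 6.78, while Snora31 lay between 6.25 and 7.16. Eef1b2 stayed between 8.70 and 9.05, while Snora41 lay between 3.92 and 5.04. Of the 16 hosts, Cep295 had the 7 arrays on top by 0.015 and Snhg9 had them at the bottom by under 0.001, and the other 14 overlapped. The hosts' median deviation was highest on control replicate 2 (0.12) and lowest on control replicate 3 (−0.10), where the members' median was 0.18 and −0.43.

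**Figure D4:**
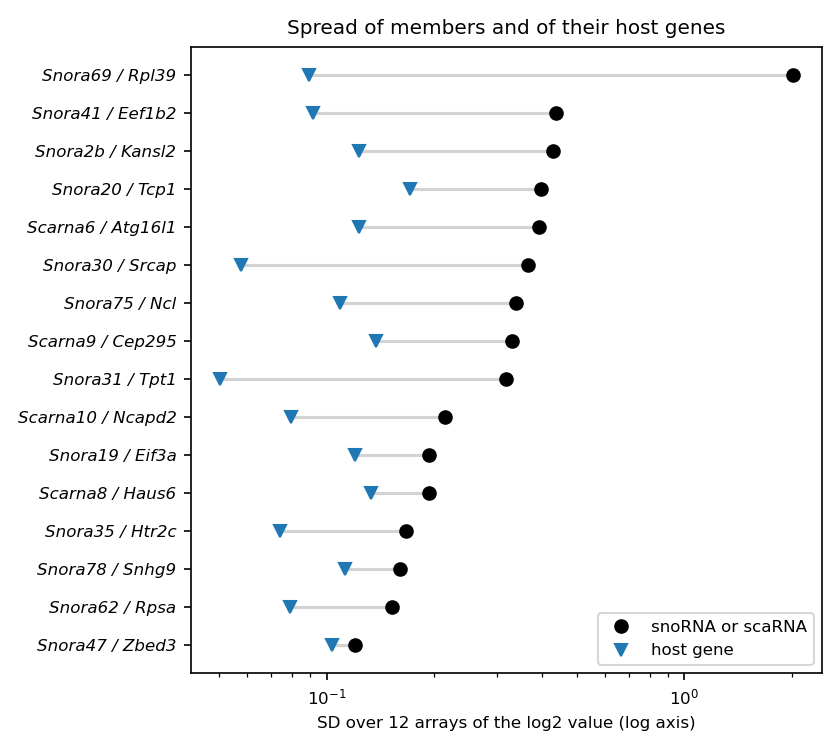
SD of log2 values over the 12 arrays (log axis) for 16 members (black circles) and their host genes (blue triangles), joined by a line for each pair. Every circle lies to the right of its triangle, and the Snora69 and Rpl39 pair (2.02 and 0.0895) is the widest apart.

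None of the members passed the test between groups. For F2 against control, limma with Benjamini-Hochberg adjustment called 0 of 18725 genes (0.0%; smallest adjusted p = 0.9999), and 172 genes had an unadjusted p under 0.05. Over all genes tested the median log2 difference was −0.01 and 43.3% were higher in F2. The members had a median of 0.04, with 19 higher and 5 lower. None had an unadjusted p under 0.05 and none had groups that did not overlap, where 0.705% of tested genes and 1.11% of all genes did not overlap. The largest differences by lowest p were Snora30, from the chromatin remodeller gene Srcap, at 0.37 (SE 0.22), Snora73a at 0.33 (SE 0.19), and Scarna9 at 0.35 (SE 0.19, below the filter). Snora41 (−0.06, SE 0.28), Snora19 (−0.04, SE 0.13) and Scarna17 (−0.03, SE 0.067) led the other direction. The 95% interval stayed inside 2-fold for 22 of 24 members and inside 1.5-fold for 13. For Snora69 it ran from −2.71 to 3.01 and for Snora21 from −1.09 to 1.22. With 4 arrays a group, differences of over 2-fold could therefore have been missed for these 2 members.

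For F3 against control, limma called 0 of 18725 genes (0.0%; smallest adjusted p = 0.9998), with 548 at an unadjusted p under 0.05. Over all genes tested the median difference was −0.01 and 45.3% were higher in F3. The members had a median of 0.15, with 18 higher and 6 lower. This was not particular to them: the median was 0.19 for C/D box snoRNAs, 0.17 for U RNAs and 0.27 for Y RNAs. For the host genes it was 0.01. Snora69 was bright on 3 of 4 F3 arrays and on 2 of 4 control arrays, a difference of 0.93 with a 95% interval from −1.93 to 3.79. With the C/D level as a covariate the members' median was 0.02 for F3 and 0.00 for F2 against control, against 0.15 and 0.04 without it. Scarna9 was 0.36 higher (SE 0.19, below the filter) and did not pass. Scarna17 (−0.08, SE 0.067), Snora35 (−0.10, SE 0.11) and Scarna6 (−0.07, SE 0.26) were the 3 lower members with the lowest p. The 95% interval stayed inside 2-fold for 22 members and inside 1.5-fold for 9.

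Both copies of Snora73, also called U17 or E1, had the lowest unadjusted p of the members in F3 against control, without passing the test. Snora73 is needed for cleavage of the precursor of 18S ribosomal RNA rather than for pseudouridylation, and both copies lie within the host gene Snhg3. Snora73b had 8.28, 8.17, 8.01 and 8.10 on the F3 arrays and 7.56, 7.92, 7.51 and 7.98 on the control arrays. Every F3 array lay above every control array, the only such member, where 1.63% of tested genes and 1.65% of all genes did not overlap in either direction, and 0.726% of tested genes did so with F3 higher. The difference was 0.40 (SE 0.16, limma unadjusted p = 0.029, adjusted p = 0.9998). A second probe set for Snora73b had 8.19, 8.09, 7.88 and 8.06 on the F3 arrays and 7.44, 7.78, 7.51 and 7.89 on the control arrays, where the lowest F3 array lay just under the highest control array.

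Snora73a had 8.04, 7.92, 7.72 and 7.97 on the F3 arrays and 7.21, 7.75, 7.08 and 7.70 on the control arrays, which overlapped. Its difference was 0.48 (SE 0.19, limma unadjusted p = 0.027, adjusted p = 0.9998). A probe set annotated to both Snhg3 and Snora73a, which is no member, had 6.07, 6.12, 6.01 and 6.24 on the F3 arrays. It had 6.09, 6.00, 5.98 and 5.93 on the control arrays, and these groups overlapped. On the F2 arrays Snora73a had 8.16, 7.29, 7.63 and 7.98 and Snora73b had 8.31, 7.499, 7.77 and 8.10, a wider spread than in F3. The copies are close relatives in sequence, so their probe sets may read the same RNA and do not count as separate evidence. On F3 replicate 4, where Snora69, Snora21 and Snora16a were low, Snora73a and Snora73b were above their own means. With the C/D level as a covariate the F3 differences were 0.35 (SE 0.11) for Snora73a and 0.29 (SE 0.092) for Snora73b, and limma's adjusted p was 0.999 for both.

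For F3 against F2, limma called 0 of 18725 genes (0.0%; smallest adjusted p = 0.9999), with 443 at an unadjusted p under 0.05. Over all genes tested the median difference was 0.00 and 51.4% were higher in F3. The members had a median of 0.05, with 16 higher and 8 lower. None had groups that did not overlap, where 2.46% of tested genes and 2.24% of all genes did not overlap. Scarna8 (0.19, SE 0.12), Snora19 (0.18, SE 0.13) and Snora31 (0.27, SE 0.20) led the higher side by lowest p. Snora35 (−0.14, SE 0.11), Scarna17 (−0.05, SE 0.067) and Snora2b (−0.11, SE 0.29) led the lower side. The 95% interval stayed inside 2-fold for 22 members and inside 1.5-fold for 14. The F2 and F3 comparisons against control share the same control arrays.

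**Figure D5:**
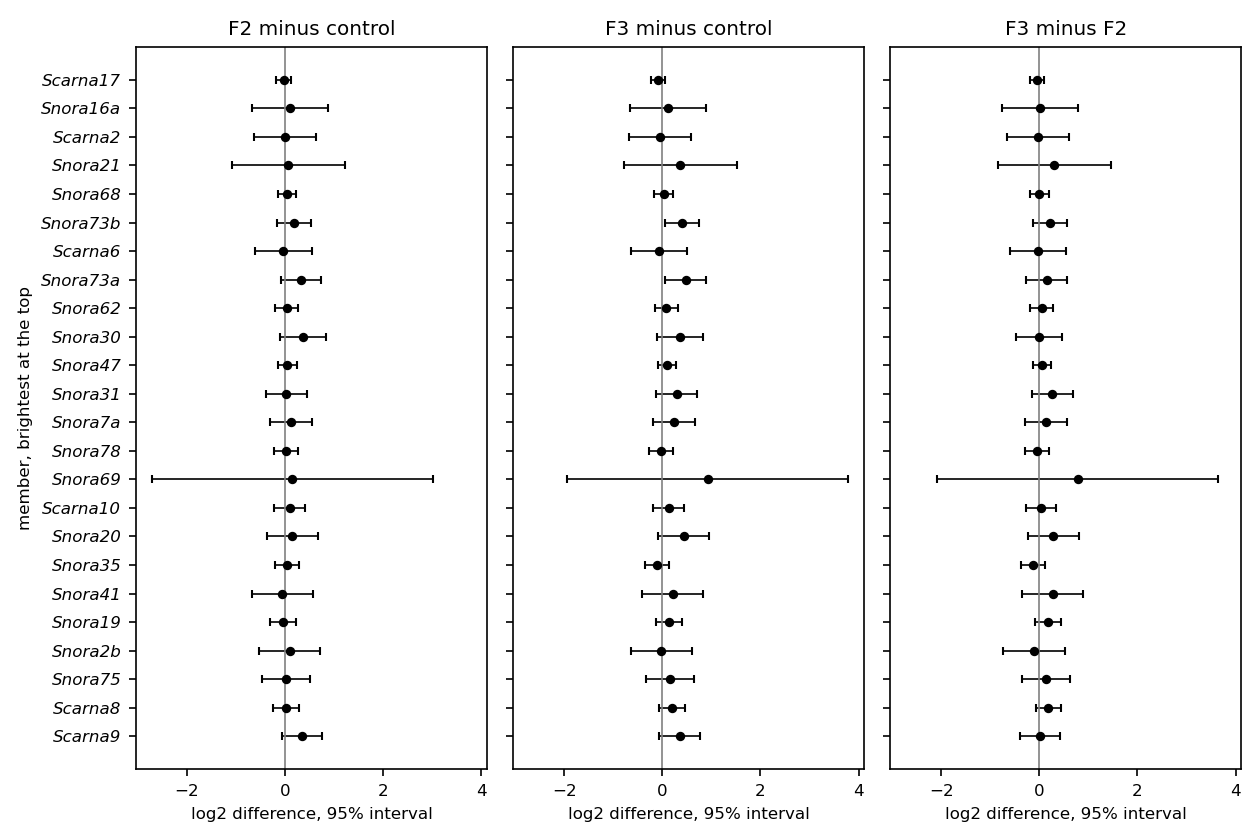
Log2 difference of each member for F2 minus control, F3 minus control and F3 minus F2, with 95% confidence intervals from limma (4 arrays a group); members run from the highest mean signal at the top to the lowest. Intervals cross 0 for every member except Snora73a and Snora73b in F3 minus control, where adjusted p was 0.9998, and Snora69 has by far the widest interval.

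Genes for the proteins of the H/ACA particle were measured as well, and none passed the test in any of the 3 comparisons. Dkc1 averaged 6.45 in F2, 6.45 in F3 and 6.41 in control. Nhp2 differed by −0.12 (SE 0.073) and Nop10 by 0.10 (SE 0.071) in F3 against control, and Gar1 by −0.02 (SE 0.068). All 4 overlapped between the arrays with bright and low Snora69. Of 8 assembly, Cajal body and nucleolar factors, Wrap53 and Ruvbl2 had the order turned round by at most 0.0058, where 2.34% of tested genes had it turned round, and the other 6 overlapped. None of the 8 passed the test, and the lowest unadjusted p in F3 against F2 belonged to Wrap53 (−0.17, SE 0.060, limma adjusted p = 0.9999), which carries scaRNAs and telomerase RNA to Cajal bodies. The 6 measured genes for 3′ end processing of small RNAs, Parn among them, had differences between −0.08 and −0.01 in F3 against control and none passed. The C/D core proteins Fbl, the methyltransferase, and Nop58 differed by −0.04 (SE 0.057) and −0.11 (SE 0.16) in F3 against control.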

How the data were processed

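Total RNA was labelled with biotin (Affymetrix WT Plus kit, per the labels' protocols). The deposited values are log2 expression per probe set. The authors processed the arrays in Affymetrix Expression Console (submitters' processing notes); no source used here gives its version, background correction or normalization. The table held 72688 probe sets with no missing entries, and log2 values ran from 0.73 to 13.64. Of these, 30604 had 1 annotated symbol and 2146 several, and 827 symbols were updated through a RefSeq table (GRCm38.p6). The array files name no genome build. Host genes were longer RefSeq genes that contain the member, by coordinates alone, since that table gives no strand.

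One limma fit (version 3.58.1, R 4.3.3; lmFit and eBayes with 9 residual degrees of freedom, no covariate) covered all 12 arrays and the 18725 genes with a mean above 4.55. P-values were adjusted by Benjamini-Hochberg at a threshold of 0.05. Printed differences, SEs and intervals come from the same fit over all 30142 genes, which holds the 7 members below the filter, and p-values from the filtered fit. The code was tested on simulated data. The order of arrays by Snora69 was set after its values were seen, and the members, lists and tests were chosen with earlier results of these data known. Named members are the 6 highest and 4 lowest by mean, the 4 largest and 4 smallest by SD above the filter, the 3 with the lowest p in each direction of a comparison, and all Scarna genes. Others were named after their values were seen. Alternatives were other normalizations, filters, probe set summaries, variance models, array weights, fewer arrays, a replicate block, the C/D level as a covariate, a threshold of 0.10 and leaving out each array. The number of arrays limits the precision.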

Additional observations from a re-analysis of the deposited data

Results flagged for a closer look

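In 6 of 75 groups of 4 arrays tested, for the 24 members and their median deviation, 1 array lay apart from the other 3 by Dixon's test, where chance alone flags about 1 in 20 groups. All 6 were F3 replicate 4 at the low end. It had 3.93 for Snora69, against 7.65 to 7.93 on the other F3 arrays, and 7.37 for Snora21, against 8.55 to 8.69. Snora16a had 7.997 there, against 8.83 to 8.96, and Snora41 had 4.09, against 4.79 to 4.88. Snora7a had 6.48, against 6.95 to 7.03, and Scarna10 had 5.84, against 6.13 to 6.18. These 6 members share the order of arrays described above, so the flags are not independent of each other. In the F2 and control groups the arrays split 2 and 2, a pattern that this test cannot flag.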

How the results depend on the processing

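Limma called 0 genes in each of the 3 comparisons under every alternative run, replicate block and leaving out each array included. Without 1 array the members' median difference ran from −0.03 (without control replicate 3) to 0.16 (without F2 replicate 2) for F2 minus control, from 0.07 (without control replicate 3) to 0.28 (without F3 replicate 4) for F3 minus control, and from −0.03 (without F2 replicate 2) to 0.18 (without F2 replicate 1) for F3 minus F2. The F3 minus F2 median was 0.0056 with array weights and 0.030 with arrays centred on their medians, and the F2 minus control median was 0.068 with array weights. The cause was not tested.

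Some small differences of single members changed sign. Scarna17 in F2 minus control was 0.031 with array weights and −0.061 to 0.018 when arrays were left out. Leaving out arrays gave −0.24 to 0.15 for Snora41 and −0.13 to 0.037 for Snora19 in F2 minus control, −0.27 to 0.18 for Scarna6 and −0.18 to 0.0011 for Snora35 in F3 minus control, and −0.31 to 0.078 for Snora2b in F3 minus F2. When arrays were left out in F3 minus control, Snora73a kept 0.36 to 0.58 and Snora73b 0.32 to 0.48, both lowest without control replicate 3. With array weights they were lower still, at 0.34 for Snora73a and 0.29 for Snora73b. Other differences kept their sign but moved by over 1.5 times: without control replicate 3, Scarna9 was 0.18 in F2 and 0.19 in F3, and Snora30 0.24 in F2, all against control. Without control replicate 2 Snora30 was 0.56 in F2, and without F2 replicate 1 Snora73a was 0.20 in F2. In F3 minus F2, Scarna8 was 0.10 without F3 replicate 3, Snora31 0.16 without F2 replicate 2, Snora19 0.11 without F2 replicate 3, Snora35 −0.032 without F3 replicate 4 and Scarna17 −0.021 without F2 replicate 1. With array weights Scarna6 was −0.40 and Snora35 −0.018 in F3 minus control, and Snora2b −0.23 in F3 minus F2. After quantile normalization Scarna17 was −0.0099 in F2 minus control, −0.13 in F3 minus control and −0.12 in F3 minus F2. The C/D level as a covariate gave −0.19 for Snora41 and −0.090 for Snora19 in F2 minus control. It gave −0.25 for Scarna6 in F3 minus control and −0.18 for Snora2b in F3 minus F2. These values are examples and not a full list.

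The first component's share was 92.1% for members above the filter, 92.1% for Snora symbols only and 89.2% after quantile normalization. Without Snora69 it was 80.2% and with members scaled to the same variance 66.1%, both chosen after seeing the data. Without 1 array, also added later, it ran from 89.4% to 91.4%.

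Of the same-numbered arrays of different groups, 3 of 12 pairs had deviations with a correlation over 0.1 (range −0.51 to 0.32). Among pairs with different numbers it was 19 of 36 (range −0.50 to 0.55). The labels do not say whether the numbers pair the samples. These correlations cannot decide it, because any difference between arrays enters them. With the replicate block limma called 0 genes, and the medians were 0.04, 0.15 and 0.05 for F2 minus control, F3 minus control and F3 minus F2. Members near background are limited by signal.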
